A study of Rattus norvegicus with 24 samples.

Results

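The 10 genes described here are markers of tubular injury and repair in the kidney, chosen by name: Havcr1, Spp1, Clu, Vcam1, Tnfrsf12a, Sox9, Sox4, Prom1, Cd24 and Mal. A transcript cluster of the array named for the gene was found for 8 of the 10, of 14324 genes named in all. Spp1 and Sox9 had no cluster named for them and were not analysed here. Each of the 8 genes had 1 cluster, so that no choice between clusters was needed.

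Gene expression was measured on 24 Affymetrix arrays, 1 of the cortex and 1 of the medulla of each of 12 rats, all male and of the Wistar strain, 6 of them fed lithium and 6 kept as controls. Lithium-treated rats were given 40 mmol lithium per kg of food for 7 days and 60 mmol per kg thereafter, over 6 months in all, with water as they wished and a salt block. Control rats were given a standard diet and tap water over the same 6 months, with no salt block named, so that lithium and the salt block cannot be told apart. The sources give no age for the animals, and pieces of whole tissue were homogenised, so that fewer cells of a type and less RNA per cell cannot be told apart in any value below.

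Injured tubular cells lose features of mature transport epithelium and take up a programme of dedifferentiation, division and repair. Havcr1 encodes kidney injury molecule 1, a receptor for dying cells that is nearly silent in healthy proximal tubule and strongly induced by acute injury. Spp1 encodes osteopontin and Clu the secreted chaperone clusterin, both made by damaged tubules, while Vcam1, an adhesion molecule for leukocytes, marks proximal tubule cells that fail to complete repair in mouse and human kidney. Sox9 and Sox4 are transcription factors of kidney development, Prom1 (CD133) and Cd24 are surface proteins of progenitor-like tubular cells in human kidney, Tnfrsf12a (Fn14) is the receptor of the cytokine TWEAK, and Mal is a lipid raft protein that sorts cargo to the apical membrane, mainly of thick limb and collecting duct.

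Promoters of 7 of the 10 genes were present in the RefSeq table of build GRCr8, each from 250 bases before to 50 bases after a start site. The promoters of 3 genes, Havcr1, Tnfrsf12a and Mal, are printed for the results that turn on them. Havcr1 stood far out in a single animal, and Tnfrsf12a was the marker whose cortical values did not overlap between diets. Mal differed in direction between tissues, as did Cd24 and Prom1. The promoters are written 5′ to 3′, and capitals mark a match to a motif searched on both strands.

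Havcr1, chr10:31629528-31629827, plus strand: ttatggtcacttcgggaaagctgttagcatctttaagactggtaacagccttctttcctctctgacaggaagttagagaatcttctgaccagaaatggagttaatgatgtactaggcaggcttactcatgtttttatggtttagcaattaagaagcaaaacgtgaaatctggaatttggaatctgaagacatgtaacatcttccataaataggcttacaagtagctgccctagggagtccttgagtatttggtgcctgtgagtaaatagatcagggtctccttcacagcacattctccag

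Tnfrsf12a, chr10:13213599-13213898, minus strand: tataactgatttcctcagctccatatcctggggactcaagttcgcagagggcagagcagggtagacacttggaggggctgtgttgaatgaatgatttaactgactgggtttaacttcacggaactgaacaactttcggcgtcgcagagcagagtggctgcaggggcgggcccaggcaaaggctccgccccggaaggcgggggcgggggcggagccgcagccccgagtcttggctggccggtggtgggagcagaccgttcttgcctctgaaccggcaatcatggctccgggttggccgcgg

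Mal, chr3:135341374-135341673, minus strand: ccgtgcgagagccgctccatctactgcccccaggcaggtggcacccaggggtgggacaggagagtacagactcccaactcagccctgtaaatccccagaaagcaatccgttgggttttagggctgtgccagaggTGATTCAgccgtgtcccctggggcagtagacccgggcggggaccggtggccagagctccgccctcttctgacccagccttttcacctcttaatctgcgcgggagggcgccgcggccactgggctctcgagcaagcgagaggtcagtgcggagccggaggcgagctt

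The motifs were those of AP-1 (TGANTCA), TEAD (GGAATG), SOX (ACAAAG or ACAATG) and NF-kB (GGANTTTCC), and no matches overlapped in these promoters. The Mal promoter held an AP-1 match, TGATTCA, whose first base lay at -116 from the start site, and a second promoter of Prom1 held another, TGAATCA, at -191. The letters leave the middle base open, so AP-1 matches here and in the share of all promoters include any base there. SOX matches lay at -179 in Spp1 and at 28 in Vcam1. No match to the TEAD letters or to the NF-kB letters GGANTTTCC was found in the windows of these 7 genes. The Vcam1 window held gggatttcc, which departs from those NF-kB letters at a single base. Such near matches were not counted, so NF-kB sites with other letters were not searched for. Of 33469 promoters in the table, 7.33% held an AP-1 match, 14.2% a TEAD match, 29.1% a SOX match and 1.28% an NF-kB match. The Havcr1 promoter was 41.0% G and C, that of Tnfrsf12a 61.3% and that of Mal 65.0%, against a median of 51.7% over all promoters. Promoter activity was not measured in these animals.

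The values are the deposited log2 intensities, from which the authors had removed the effect of scan date. Control medulla had proximal tubule marker means of 7.39 to 8.91, against 10.50 to 11.02 in control cortex, and inner medulla and papilla marker means of 9.53 to 10.87, against 6.90 to 7.42 in control cortex. Array medians ran from 6.12 to 6.22 in medulla and from 5.75 to 5.83 in cortex, so levels of the 2 tissues are described without a test. The cortex array of animal 17 equalled the mean of the other 5 lithium cortex arrays within 8e-05 and is counted in no SD of that group, which therefore has n = 5. The removal of scan date makes the deviations from the diet means add up to zero within each group of arrays scanned together (scan group, recovered from the values), to within 0.001 for the 8 genes. A single extreme array thus lowers the deposited values of the other arrays of its scan group, and the SD of a diet covers only what the removal left.

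Lithium-treated animal 19 stood apart from the other animals in cortex, by the cell type means given below. Against lithium-treated animal 18 of the same scan group, 851 of 28894 clusters were more than 1 log2 unit higher in the cortex of animal 19 and 228 more than 1 lower, 3.73% together. In medulla 272 were higher and 225 lower, 1.72% together. Counts against animal 18 alone do not show which of the 2 animals departed from the rest. The mean of 9 macrophage markers was 7.57 in the cortex of animal 19, 5.90 in that of animal 18 and 5.71 to 6.35 in control cortex. That of 6 fibroblast markers was 8.62 in animal 19, 6.90 in animal 18 and 6.71 to 7.39 in control cortex. That of 9 proximal tubule markers was 10.19 in animal 19, 10.84 in animal 18 and 10.50 to 11.02 in control cortex. Animal 19 was also the extreme lithium cortex array for these lists. A list of fat cell genes, chosen after the values of animal 19 were seen, had a mean over 9 measured genes of 8.60 in the cortex of animal 19, against 4.77 to 6.10 in the other 10 cortex arrays with values of their own. The brown fat gene Ucp1 was at 9.67 there, against 2.85 to 4.87 in the others, and the adipocyte hormone gene Adipoq at 10.4, against 5.33 to 7.70. In medulla the fat cell mean was 6.32 in animal 19, against 5.77 to 6.13 in the other 11 arrays. The thick limb and distal tubule mean there was 8.14 in animal 19, 6.94 in animal 18 and 8.56 over control animals 15 and 16. The part of these differences in the values of the injury markers was not tested, and the fold changes of the markers without animal 19 are given where it moved them most.

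The plot of values by array shows the 8 measured genes in both tissues and both diets.

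**Figure D1:**
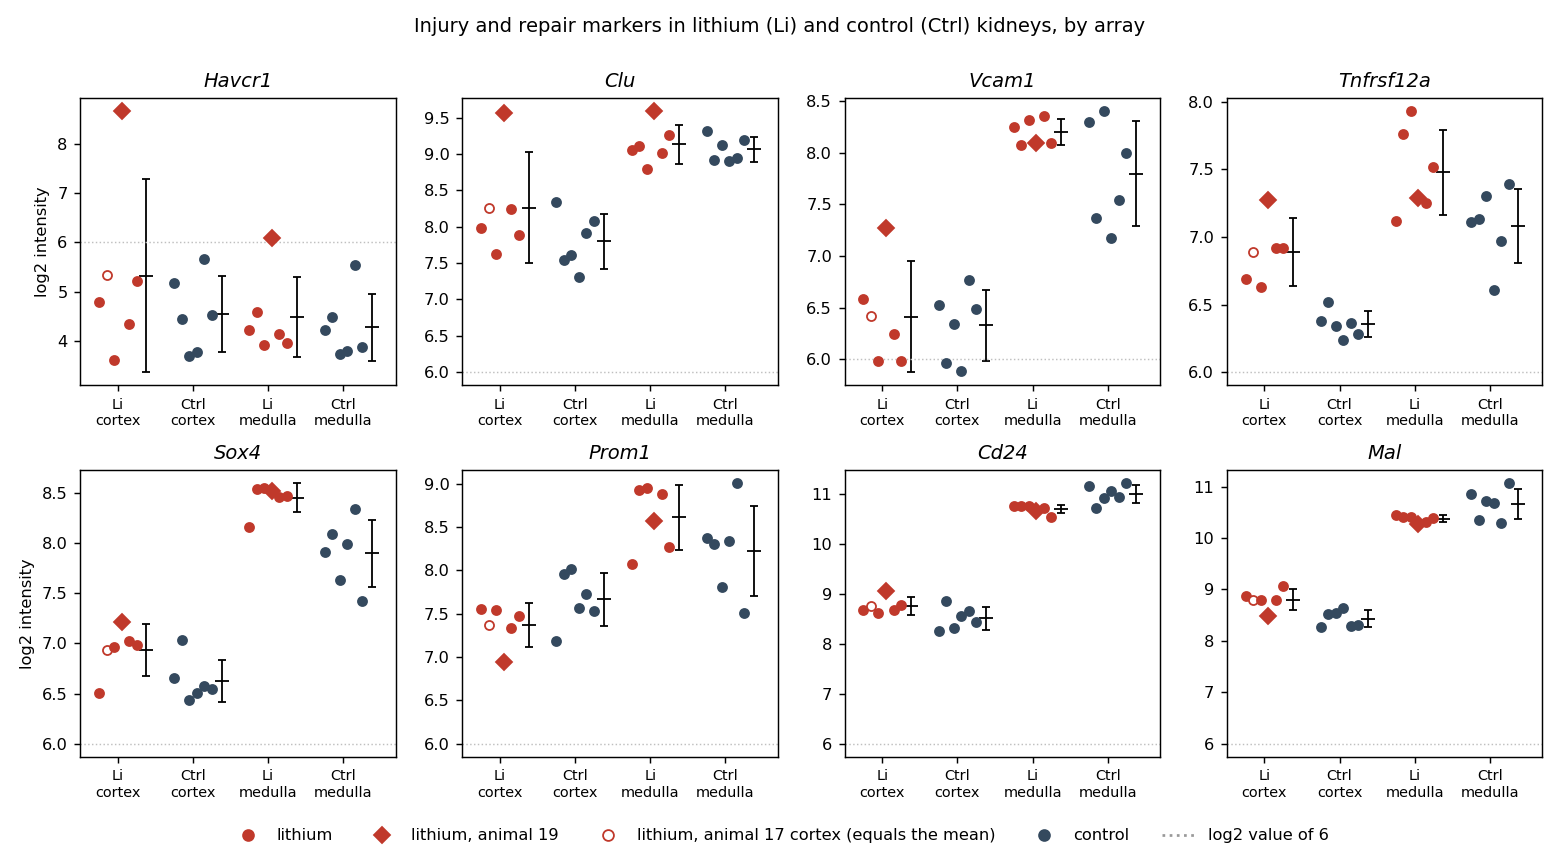
Log2 intensity (y axis) of the 8 measured injury and repair markers on each array, with lithium (Li, red) and control (Ctrl, dark blue) columns for cortex and medulla, and the mean and SD in black beside each column. Diamonds mark animal 19, which reached 8.66 for Havcr1 in cortex and 6.08 in medulla, and the open circle is the cortex array of animal 17, which equals the mean of the other lithium cortex arrays.

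None of the 7 markers that could be tested passed an adjusted p of 0.05 in cortex, in medulla or in the difference between the tissues in the fit with scan group (limma with Benjamini-Hochberg adjustment over all clusters tested). Havcr1 did not reach a log2 value of 6 on 4 of the 12 arrays in either tissue and was not tested there. Over all clusters the same fit called 0.574% in cortex (79 of 13766), 1.19% in medulla (190 of 16025) and 0.0915% for the tissue difference (15 of 16388). At an unadjusted p under 0.05, 2 of the 7 markers passed in cortex (Tnfrsf12a and Mal, both higher with lithium), against 7.54% of all clusters. In medulla 3 passed (Tnfrsf12a and Sox4 higher, Cd24 lower), against 19.6% of all clusters. The median log2 fold change of the 7 markers was 0.31 in cortex, against 0.01 over all clusters, and 0.39 in medulla, against -0.009 over all clusters. Without animal 19 the fold changes in cortex were 0.09 for Clu, -0.16 for Vcam1, 0.42 for Tnfrsf12a and 0.225 for Sox4. Those of Prom1, Cd24 and Mal were -0.17, 0.17 and 0.47.

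When scan group was left out of the fit, Tnfrsf12a passed in cortex and Sox4 in medulla, 1 of 7 markers in each tissue. That fit called 2.09% of all clusters in cortex and 6.56% in medulla. It counts degrees of freedom that the removal of scan date had already used. The plot of fold changes gives the intervals of the fit with scan group beside the differences within each scan group.

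**Figure D2:**
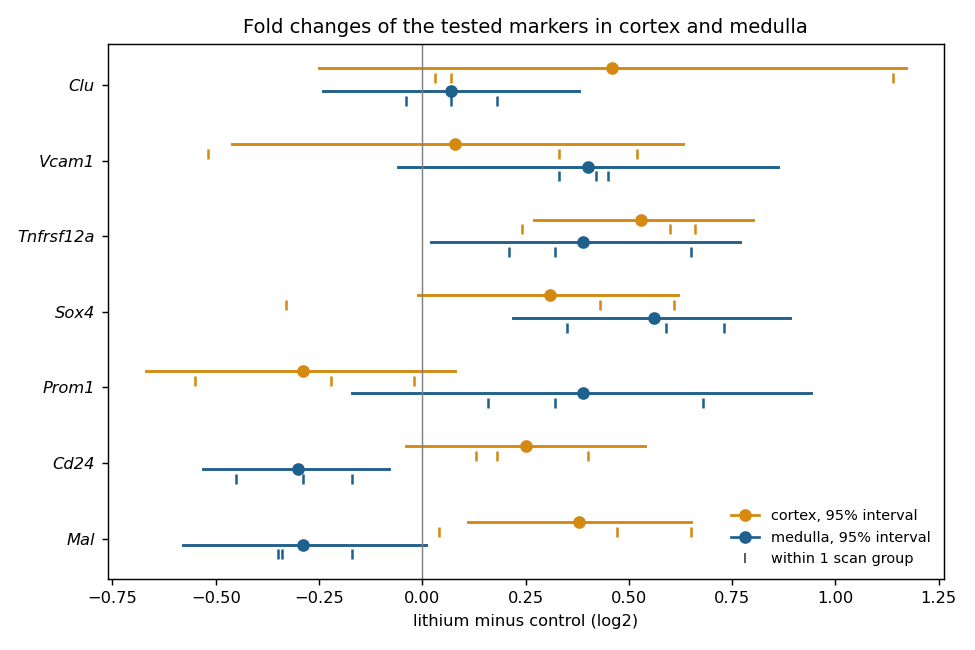
Lithium minus control (x axis, log2) for the 7 tested markers in cortex (orange) and medulla (blue), as the fold change (points) with its 95% interval (lines) from the fit with scan group, and as the difference within each of 3 scan groups that held both diets (ticks). Tnfrsf12a lay above 0 in every scan group of both tissues, and Cd24 and Mal lay above 0 in cortex and below 0 in medulla in every scan group. Prom1 lay below 0 in cortex and above 0 in medulla in every scan group.

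Of the proximal injury markers, Havcr1 was low in most animals of both diets. In cortex it was at 4.80, 3.62, 8.66, 4.35 and 5.21 in lithium-treated animals 6, 18, 19, 21 and 22, and at 5.17, 4.45, 3.69, 3.78, 5.66 and 4.53 in control animals 1, 13, 15, 16, 29 and 30. Animal 19 alone lay above all controls, and 4 of the 5 lithium-treated animals lay within or below the control range. In medulla Havcr1 was at 4.23, 4.59, 3.93, 6.08, 4.14 and 3.97 in lithium-treated animals 6, 17, 18, 19, 21 and 22, and at 4.22, 4.48, 3.73, 3.80, 5.54 and 3.89 in the same order of control animals. Animal 19 was thus the highest lithium-treated animal in both tissues and animal 29 the highest control animal in both.

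The mean of Havcr1 was 5.33 ± 1.96 in lithium cortex (SD, n = 5) and 4.55 ± 0.77 in control cortex (SD, n = 6), a log2 difference of 0.78. Without animal 19 this difference was -0.17, and without its whole scan group -0.19. In medulla the means were 4.49 ± 0.81 in lithium-treated and 4.28 ± 0.68 in control animals (SD, n = 6 each), a difference of 0.215 that was -0.18 without animal 19. With no filter on low values, limma gave an adjusted p of 0.852 in cortex and 0.849 in medulla.

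Within its scan group, which the shift by scan date leaves as it was, animal 19 had Havcr1 at 8.66 in cortex and animal 18 at 3.62, below the log2 value of 6 used as a filter. Set against that filter value, Havcr1 was at least 6.32-fold higher in animal 19. In medulla it was at 6.08 in animal 19, next to the filter value, and at 3.93 in animal 18, so that no fold is given. The fat cell genes, whose mean in cortex was 8.60 in animal 19 and 5.11 in animal 18, had a mean in medulla of 6.32 in animal 19 and 5.83 in animal 18.

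Clu was also highest in animal 19 among the lithium-treated animals. Its values ran from 7.63 through a median of 7.98 to 9.57 in lithium cortex and from 7.31 through 7.76 to 8.34 in control cortex. The log2 fold change was 0.46 (SE 0.32, adjusted p = 0.795 by limma, 95% interval -0.25 to 1.17), and it was 0.09 without animal 19 and 0.06 without its scan group. Animal 19 had 1.94 more log2 units of Clu than animal 18 in cortex and 0.80 more in medulla. In medulla Clu ran from 8.79 to 9.59 in lithium-treated and from 8.90 to 9.32 in control animals, with a log2 fold change of 0.07 (SE 0.14, 95% interval -0.24 to 0.38) that was -0.045 without animal 19.

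Vcam1 separated the tissues more than the diets. It ran from 5.99 through a median of 6.25 to 7.27 in lithium cortex and from 5.89 through 6.42 to 6.77 in control cortex, a log2 fold change of 0.08 (SE 0.25, 95% interval -0.46 to 0.63) that became -0.16 without animal 19. In medulla the 6 lithium-treated animals lay close together, from 8.07 to 8.35, against 7.17 to 8.40 in the 6 control animals. All 6 lithium-treated animals were above the control mean there, and the control range enclosed the lithium range. The log2 fold change in medulla was 0.40 (SE 0.21, adjusted p = 0.317 by limma, 95% interval -0.06 to 0.86), with differences of 0.33 to 0.45 in the 3 scan groups. With each animal left out in turn it ran from 0.24, without control animal 16, to 0.55. Mean levels of the macrophage markers ran from 7.00 to 7.47 in lithium medulla and from 5.82 to 6.95 in control medulla. Of 7 macrophage markers tested there, 3 rose with lithium (Cd68, Mrc1 and C1qa) and none fell, against 1.19% of all clusters called. The part of these cells in the values of Vcam1, which endothelium and leukocytes can also express, was not tested.

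Tnfrsf12a was the marker whose values separated the diets in cortex. It was at 6.69, 6.63, 7.27, 6.92 and 6.92 in lithium-treated animals 6, 18, 19, 21 and 22, and at 6.38, 6.52, 6.34, 6.24, 6.36 and 6.28 in control animals 1, 13, 15, 16, 29 and 30. Every lithium cortex array lay above every control cortex array, a pattern without overlap that 2.57% of the clusters tested in cortex showed. The means were 6.89 ± 0.25 in lithium cortex (SD, n = 5) and 6.36 ± 0.10 in control cortex (SD, n = 6). The log2 fold change was 0.53 (SE 0.12, 95% interval 0.27 to 0.80, 1.45-fold), with an unadjusted p of 0.00097 and an adjusted p of 0.117 by limma with scan group, and of 0.00867 without it. It was 0.42 without animal 19, with an adjusted p of 0.0853, and 0.46 without its scan group, with an adjusted p of 0.552 over 8 arrays.

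In medulla Tnfrsf12a was at 7.12, 7.76, 7.93, 7.29, 7.25 and 7.52 in lithium-treated animals 6, 17, 18, 19, 21 and 22, and at 7.11, 7.13, 7.30, 6.61, 6.97 and 7.39 in control animals 1, 13, 15, 16, 29 and 30. The ranges overlapped, with 3 of 6 lithium-treated animals above all controls and all 6 above the control mean. The log2 fold change was 0.39 (SE 0.17, 95% interval 0.02 to 0.77, adjusted p = 0.239 by limma). Lithium minus control was positive in all 3 scan groups of each tissue, from 0.24 to 0.66 in cortex and from 0.21 to 0.65 in medulla. The gene of its ligand TWEAK, Tnfsf12, had means of 6.84 in lithium cortex and 6.78 in control cortex, and of 7.46 in lithium medulla and 7.44 in control medulla, with log2 fold changes of 0.06 (SE 0.09) and 0.02 (SE 0.10) in cortex and medulla.

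Sox4 was the marker nearest to the threshold in medulla. It was at 8.16, 8.54, 8.55, 8.52, 8.46 and 8.47 in lithium-treated animals 6, 17, 18, 19, 21 and 22, and at 7.91, 8.09, 7.63, 7.99, 8.34 and 7.42 in control animals 1, 13, 15, 16, 29 and 30. Animals 17, 18, 19, 21 and 22 lay above all control animals, and animal 6 lay among them. No marker was free of overlap in medulla, where 3.71% of the clusters tested were. The means were 8.45 ± 0.15 in lithium medulla and 7.89 ± 0.33 in control medulla (SD, n = 6 each), a log2 fold change of 0.56 (SE 0.15, 95% interval 0.22 to 0.89, 1.47-fold). The adjusted p was 0.0982 by limma with scan group and 0.0354 without it. It was 0.0420 without animal 6 and 0.0410 without control animal 29, and at or above 0.05 when any other animal was left out.

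In cortex Sox4 was at 6.51, 6.96, 7.21, 7.02 and 6.98 in lithium-treated animals 6, 18, 19, 21 and 22, and at 6.65, 7.03, 6.44, 6.51, 6.58 and 6.55 in control animals 1, 13, 15, 16, 29 and 30. Apart from animal 6, the lithium-treated animals lay above all controls other than animal 13, and animals 6 and 13 were of 1 scan group, where lithium minus control was -0.33. The other scan groups gave 0.61 and 0.43. The log2 fold change was 0.31 (SE 0.14, adjusted p = 0.677 by limma, 95% interval -0.01 to 0.62), and with each animal left out in turn it ran from 0.225, without animal 19, to 0.519, without animal 6. It was 0.12 without the scan group of animal 19. Of 8 other factors of nephron development that were tested in each tissue, none passed with scan group in the fit, and Emx2 passed in medulla without it (8.92 in lithium-treated and 8.36 in control animals, log2 fold change 0.56, adjusted p = 0.0234 by limma).

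Prom1 was lower with lithium in cortex and higher in medulla, in both cases within the spread between animals. It ran from 6.94 through a median of 7.48 to 7.55 in lithium cortex and from 7.19 through 7.65 to 8.02 in control cortex, a log2 fold change of -0.29 (SE 0.17, adjusted p = 0.746 by limma, 95% interval -0.67 to 0.08). In medulla it ran from 8.07 to 8.95 in lithium-treated and from 7.51 to 9.01 in control animals, a log2 fold change of 0.39 (SE 0.25, adjusted p = 0.418 by limma, 95% interval -0.17 to 0.94) that ran from 0.21 without control animal 30 to 0.58 without control animal 29. The lowest of the lithium cortex arrays was that of animal 19. Without it the fold change in cortex was -0.17. Lithium minus control of Prom1 kept its sign in all 3 scan groups of a tissue, from -0.55 to -0.02 in cortex and from 0.16 to 0.68 in medulla.

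Cd24 and Mal, the markers with the highest levels in control medulla relative to control cortex, were higher with lithium in cortex and lower in medulla. Cd24 was at 8.68, 8.61, 9.05, 8.67 and 8.78 in the cortex of lithium-treated animals 6, 18, 19, 21 and 22, and at 8.25, 8.85, 8.31, 8.56, 8.66 and 8.43 in control animals 1, 13, 15, 16, 29 and 30. In medulla it was at 10.76, 10.76, 10.75, 10.66, 10.71 and 10.54 in lithium-treated animals 6, 17, 18, 19, 21 and 22, and at 11.16, 10.71, 10.92, 11.06, 10.94 and 11.22 in the control animals in the same order. All 6 lithium medullas lay below the control mean, 3 of them below every control, and control animal 13 lay among them.

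Mal was at 8.87, 8.79, 8.48, 8.80 and 9.07 in the cortex of lithium-treated animals 6, 18, 19, 21 and 22, and at 8.26, 8.53, 8.55, 8.63, 8.29 and 8.30 in control animals 1, 13, 15, 16, 29 and 30. Of these 5 lithium-treated animals, 4 lay above every control, and animal 19 lay among the controls. In medulla Mal was at 10.45, 10.41, 10.41, 10.27, 10.31 and 10.38 in lithium-treated animals 6, 17, 18, 19, 21 and 22, and at 10.85, 10.34, 10.72, 10.67, 10.30 and 11.07 in control animals 1, 13, 15, 16, 29 and 30. The lithium-treated animals lay between 10.27 and 10.45, while control animals 13 and 29 lay at their level and the other 4 control animals above them.

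The log2 fold change of Cd24 was -0.30 in medulla (SE 0.10, 95% interval -0.53 to -0.08, adjusted p = 0.146 by limma) and 0.25 in cortex (SE 0.13, 95% interval -0.04 to 0.54, adjusted p = 0.712 by limma). That of Mal was -0.29 in medulla (SE 0.13, 95% interval -0.58 to 0.01, adjusted p = 0.266 by limma) and 0.38 in cortex (SE 0.12, 95% interval 0.11 to 0.65, adjusted p = 0.435 by limma). Each pointed the same way in all 3 scan groups of a tissue, from -0.45 to -0.17 in medulla and from 0.13 to 0.40 in cortex for Cd24, and from -0.35 to -0.17 in medulla and from 0.04 to 0.65 in cortex for Mal. Without animal 19 the fold change in cortex was 0.17 for Cd24 and 0.47 for Mal, and without control animal 30 that of Mal in medulla was -0.18.

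The difference between the tissues was tested as an interaction term. At an unadjusted p under 0.05 it separated Mal and Cd24, 2 of the 7 markers, against 12.2% of all clusters. The medulla effect minus the cortex effect was -0.66 for Mal (SE 0.19, adjusted p = 0.213 by limma) and -0.55 for Cd24 (SE 0.17, adjusted p = 0.241 by limma). Without scan group in the fit both passed, with adjusted p-values of 0.0311 and 0.0407, and 2.18% of all clusters passed. In a fit with the animal as a block, medulla minus cortex was taken within each animal. Animal 17, alone in its cortex scan group, has no weight in that fit, so its estimates are those without animal 17. There the difference was -0.67 for Mal (adjusted p = 0.288) and -0.57 for Cd24 (adjusted p = 0.352) by limma. By the interaction term Prom1 differed by 0.68, in the opposite direction and with a larger SE (0.33, adjusted p = 0.412 by limma). The median over the 7 markers was -0.14, against -0.03 over all clusters. The plot of tissue differences sets the interaction term beside the fit with the animal as a block.

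**Figure D3:**
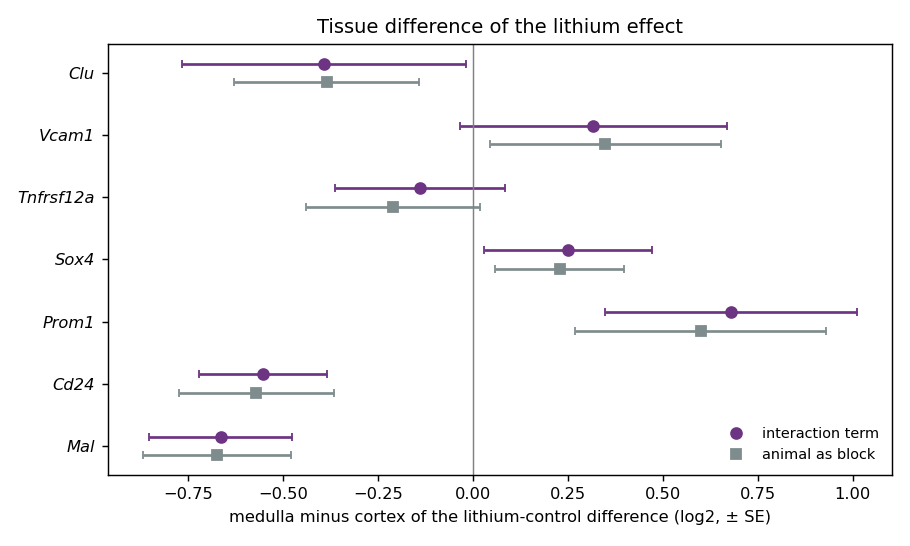
Lithium minus control in medulla, minus lithium minus control in cortex (x axis, log2, points with SE bars), for the 7 tested markers, from the interaction term over 24 arrays (purple) and with the animal as a block (grey). Mal lay at -0.66 and Cd24 at -0.55 by the interaction term, and none of the 7 passed an adjusted p of 0.05 in either fit. Animal 17 has no weight in the fit with the animal as a block.

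Levels in control animals were higher in medulla than in cortex for 7 of the 8 markers. Cd24 was 2.49 log2 units higher in control medulla than in control cortex, where its mean was 8.51. Mal had 10.66 in control medulla and 8.43 in control cortex, 2.23 more. Vcam1 was 1.46 higher in control medulla, Sox4 1.27, Clu 1.26, Tnfrsf12a 0.73 and Prom1 0.56, while Havcr1 was at 4.28 in control medulla and 4.55 in control cortex. The median over all clusters was 0.36 higher in control medulla. Markers of nephron segments also varied between the medulla arrays: those of thick limb and distal tubule had means of 5.71 to 8.88 in lithium medulla and 6.81 to 9.50 in control medulla, those of inner medulla and papilla 9.08 to 9.74 in lithium and 9.53 to 10.87 in control medulla, and those of intercalated cells 9.23 to 10.04 in lithium and 6.36 to 9.08 in control medulla. The part of these segments in the medullary values of Cd24 and Mal was not tested.

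Among 22 other injury genes tested in cortex, 8 rose and none fell, against 0.574% of all clusters called in either direction. The list was chosen with earlier results of these data known, so the share of all clusters is no measure of chance for it. The simple epithelial keratin Krt19 was at 9.30 in lithium and 5.80 in control cortex (log2 fold change 3.50, SE 0.21, adjusted p = 1.42e-05 by limma), and Krt18, another keratin of simple epithelia, at 6.67 in lithium and 5.10 in control cortex (1.57). The galactoside-binding lectin gene Lgals3 was at 7.81 in lithium and 6.33 in control cortex (1.48), and Anxa2, of an annexin that binds phospholipid and calcium, at 8.46 in lithium and 7.26 in control cortex (1.20). The other genes that rose were Cdkn1a, Krt8, Gdf15 and Itgb6. Control cortex means of Krt19 and Krt18 lay below the log2 value of 6 used as a filter, so the size of their fold changes there is uncertain. Krt18 passed that filter in cortex only through lithium arrays, so its call is tied to the filter. In medulla 2 of 26 rose and none fell, against 1.19% of all clusters called. Krt19 was at 10.91 in lithium and 8.25 in control medulla (2.65, adjusted p = 0.00247 by limma). Cdkn1a, a cell cycle inhibitor, was at 8.78 in lithium and 6.82 in control medulla (1.96, adjusted p = 0.00469 by limma). The median log2 fold change of the injury genes was 0.67 in cortex and 0.33 in medulla.

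These injury genes differed in whether they moved with animal 19. In its cortex 11 of 31 measured injury genes were more than 1 log2 unit higher than in animal 18, 35.5% of them, against 2.95% of all clusters. Lcn2, the neutrophil gelatinase-associated lipocalin, was at 9.18 in animal 19 and 5.99 in animal 18, Timp1, an inhibitor of metalloproteinases, at 9.05 in animal 19 and 6.06 in animal 18, and Vim, of mesenchymal intermediate filaments, at 10.70 in animal 19 and 8.50 in animal 18. None of these passed the test between diets in cortex. In medulla the log2 fold change was 0.99 for Lcn2 (SE 0.23, adjusted p = 0.0656 by limma) and 0.55 for Vim (SE 0.12, adjusted p = 0.0519 by limma). That of Timp1 was 0.11 there (SE 0.23, adjusted p = 0.651 by limma). Without scan group in the fit Lcn2 and Vim passed in medulla (adjusted p = 0.0205 and 0.0127 by limma). Lcn2 was at 8.74 in the medulla of animal 19 and 8.25 in that of animal 18. In medulla 1 of 31 measured injury genes was more than 1 log2 unit higher in animal 19, 3.23%, against 0.941% of all clusters, and 3 were more than 1 lower. Of the 8 that passed in cortex, Lgals3 and Anxa2 were more than 1 log2 unit higher there in animal 19 than in animal 18. Krt19 differed by -0.42, Krt18 by -0.51, Krt8 by -0.19, Cdkn1a by -0.15, Gdf15 by -0.01 and Itgb6 by -0.12. Lcn2, Timp1 and Vim were singled out after their values were seen. Without animal 19 the same 8 genes passed in cortex, with a median of 0.33 over the 22 tested, and the same 2 in medulla. Without its whole scan group, which leaves 8 arrays, Krt19, Krt18 and Lgals3 passed in cortex and none of the 26 in medulla.

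The plot of animal 19 against animal 18 sets the injury and repair markers beside the cell type markers.

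**Figure D4:**
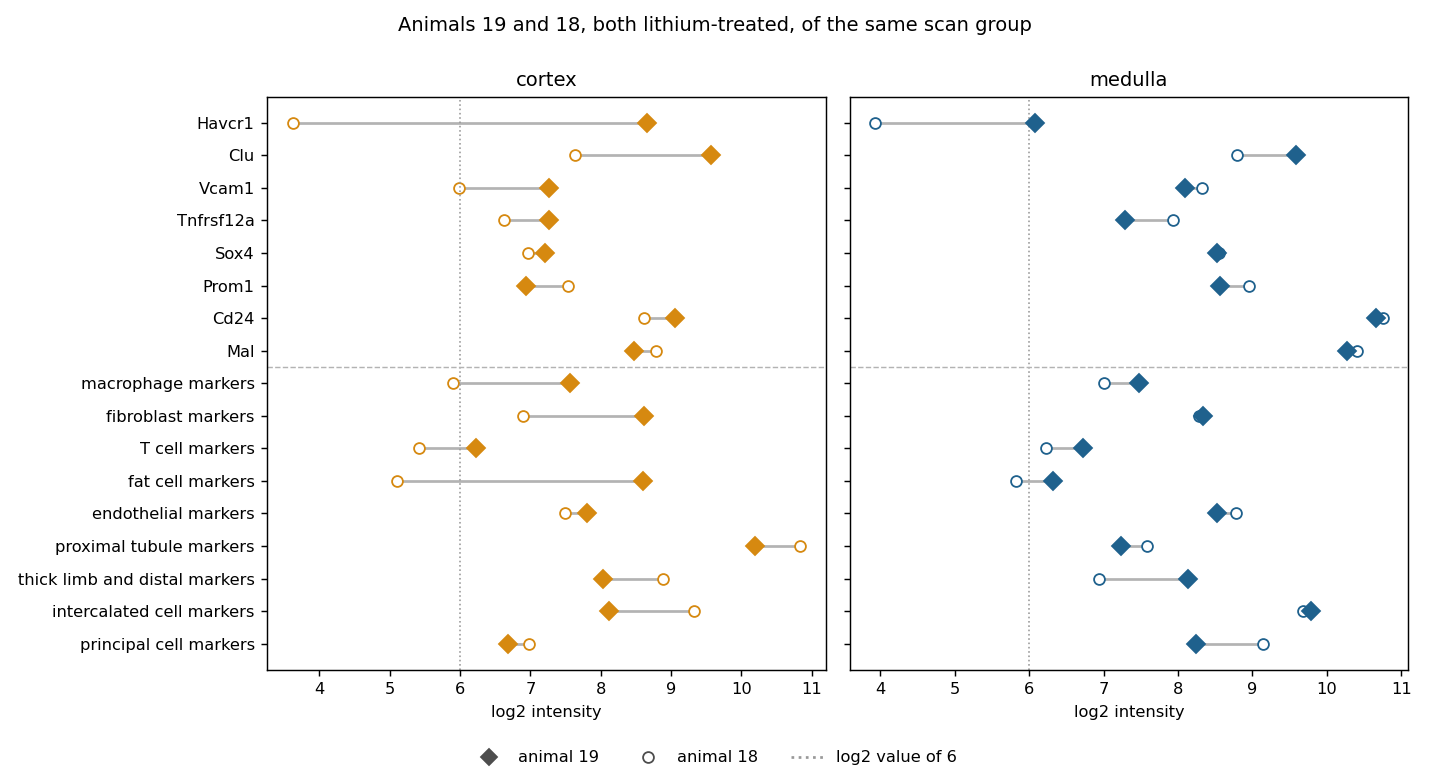
Log2 intensity (x axis) in lithium-treated animal 19 (diamonds) and lithium-treated animal 18 of the same scan group (open circles) of the 8 measured injury and repair markers (above the dashed line) and of the means of 9 cell type marker lists (below it), in cortex (orange, left) and medulla (blue, right), with a dotted line at 6. In cortex Havcr1 was at 8.66 in animal 19 and 3.62 in animal 18, and the fat cell mean at 8.60 in animal 19 and 5.11 in animal 18, with levels of different genes not comparable.

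Of 13 genes of NF-kB signalling and failed repair tested in cortex and 15 in medulla, none passed with scan group in the fit, and Dcdc2 and Tgfb2 passed in cortex without it. Of the partners by which these markers bind cells or matrix, 5 were tested in cortex and 6 in medulla. Cd44, a receptor of osteopontin and hyaluronan, rose in both tissues, to 6.56 in lithium cortex, against 5.33 in control cortex (log2 fold change 1.24, SE 0.16, adjusted p = 0.00352 by limma), and to 8.11 in lithium medulla, against 6.97 in control medulla (1.14, SE 0.20, adjusted p = 0.0229 by limma). The call in medulla was lost without animal 19, and that in cortex was kept. In cortex Cd44 passed the filter at a log2 value of 6 only through lithium arrays. Its call there is tied to the filter, and the size of its fold change is uncertain. Cd44 was at 8.27 in the medulla of animal 19 and at 8.02 in that of animal 18. Over all clusters, 53 were called in medulla without animal 19, against 190 with all arrays, and 50 without animal 21 or animal 22. Itga4, an integrin chain that binds the protein of Vcam1, was at 6.26 in lithium medulla and 5.65 in control medulla (0.61, SE 0.23, adjusted p = 0.181 by limma). None of the 5 paralogs of the markers tested in each tissue passed, the largest difference being that of Prom2 in medulla, at 7.53 in lithium-treated and 8.49 in control animals (-0.97, SE 0.35, adjusted p = 0.162 by limma).

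Other cell type markers changed with the diet in the same pieces of tissue. The fit with scan group called 0.574% of all clusters in cortex and 1.19% in medulla. Of 7 principal cell markers, 4 fell in cortex: Kcne1, Aqp2, Scnn1g and Scnn1b, with list means of 6.68 to 7.26 in lithium cortex and 7.54 to 8.17 in control cortex. In medulla the intercalated cell genes Oxgr1 and Slc4a9 rose (2 of 7 tested), as did Cd3e of T cells (1 of 4), while Emcn of endothelium (1 of 4) and Podxl of podocytes and endothelium (1 of 3) fell. The mean of 1 diet lay below the filter value of 6 for Kcne1 in cortex (4.95 with lithium). So it did for Mrc1 and Cd3e in medulla (5.36 and 5.53 in controls), and the size of these changes is uncertain. None of the proximal tubule, thick limb and distal tubule, papilla, urothelium or fibroblast markers passed in either tissue with scan group in the fit. Without it Slc34a1, Slc22a6 and Slc12a3 fell in medulla, where 6.56% of all clusters passed. In cortex Calb1 fell and Cryab rose in that fit, where 2.09% of all clusters passed.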

How the data were processed

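Portions of cortex and medulla of 12 rats were hybridised to Affymetrix rat gene arrays, for which the methods name both a gene and an exon version. The authors deposited log2 intensities of 28894 transcript clusters. They had used RMA in Partek (background correction, quantile normalization, median polish), removed scan date through an analysis of variance, and taken the mean of the probe sets of each gene. The submitters' processing notes name rn4, but positions of clusters played no part here. The platform annotation gave a single symbol to 15097 clusters, several to 323 and none to 13474.

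The scan dates themselves were not used here. Scan groups were recovered from directions of the values that hold no variance: animals 1, 6, 13 and 17, animals 15, 16, 18 and 19, and animals 21, 22, 29 and 30, with animal 17 alone in cortex. Clusters that reached a log2 intensity of 6 on 4 or more of a tissue's 12 arrays were tested there by lmFit and eBayes of limma 3.58.1, run in R 4.3.3, with diet and scan group as terms, which follows the 2-way analysis of variance of the methods. P-values were adjusted by Benjamini-Hochberg over all clusters tested, with a threshold of 0.05. The difference between tissues was an interaction term over 24 arrays. The fits were tested on simulated data. Alternatives left out scan group, the filter or each animal, centred or quantile-normalized the arrays again, used an intensity trend, plain tests in place of limma, or left out the scan group of animal 19. The number of arrays limits the precision.

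Cortex and medulla are paired by the animal number in the labels. The deviations of an animal's 2 arrays from their group means correlated at -0.0867 to 0.438 across 13403 clusters, over 0.1 in 6 of 11 animals.

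Values of every array are given for genes past the threshold in a tissue with or without scan group, or without overlap, and for Havcr1, Cd24 and Mal after their values were seen. From each list, up to 4 genes with the largest change past the threshold are named with values. The members and lists were chosen with earlier results of these data known. Promoters are from the RefSeq table of build GRCr8. Tables and figures were made in Python 3.11.15 with numpy 2.4.6, pandas 2.3.3 and matplotlib 3.10.9.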

Additional observations from a re-analysis of the deposited data

Results flagged for a closer look

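In 3 of 32 groups of arrays, 1 array stood far from the others of its diet, tissue and gene, by a gap that chance gives in about 1 in 20 groups. Havcr1 in lithium medulla was at 6.08 in animal 19, while the next animal was at 4.59. Sox4 in control cortex was at 7.03 in animal 13, while the next control animal was at 6.65. Sox4 in lithium medulla was at 8.16 in animal 6, while the next lithium-treated animal was at 8.46. Havcr1 in lithium cortex, at 8.66 in animal 19 and 5.21 in the next animal, did not pass this limit with 5 arrays. Animals 6 and 13 belong to 1 scan group. The removal of scan date shifts arrays of a scan group together, and its part in these gaps was not tested.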

How the results depend on the processing

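The fold changes and tissue differences of the 7 tested markers were recomputed 382 times under alternatives. Of these, 371 kept their direction and their side of the threshold, 6 newly passed it and 5 changed sign. Leaving out scan group, changing the filter or using an intensity trend changed no fold change, only its SE and adjusted p. Leaving out the cortex array of animal 17 returned the main fit in cortex. Such alternatives are no test of direction. Those of Havcr1, which was not tested, were recomputed 34 times and changed sign in 4: -0.173 in cortex and -0.181 in medulla without animal 19, and -0.194 in cortex and -0.297 in medulla without its scan group.

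Without scan group, 1 marker was called in cortex, 1 in medulla and 2 for the tissue difference, against 0 with it, and 288 clusters in cortex and 1052 in medulla, against 79 and 190. With each animal left out in turn, 34 to 92 clusters were called in cortex and 50 to 1053 in medulla (1053 without lithium-treated animal 6), with 0 markers in cortex and 0 to 1 in medulla (Sox4, without animal 6 or control animal 29). Without the scan group of animal 19, an alternative chosen after seeing the data, 28 clusters were called in cortex and 1 in medulla. The 2-way analysis of variance called 14 and 37 clusters after Benjamini-Hochberg in cortex and medulla, and 143 and 558 at the methods' p and fold change. The methods' t-test called 296 and 650 after Benjamini-Hochberg, with 1 marker in cortex, and 163 and 651 at their p and fold change. The causes were not tested.

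The sign changes of tested markers were those of Clu in medulla (-0.045 without animal 19, -0.045 to 0.156 with each animal left out), Vcam1 in cortex (-0.16 to 0.21 with each animal left out, below 0 without animal 19 and without control animal 16, and -0.18 without the scan group of animal 19), and the tissue difference of Tnfrsf12a (-0.324 to 0.019 with each animal left out, above 0 without animal 19). With the animal as a replicate block, a fit in which animal 17 has no weight, 0 markers were called for the tissue difference, as without the block. Each marker had 1 cluster, so the alternative of another cluster could not be run.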
